A study of Homo sapiens with 12 samples.

Results

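The HOXC cluster holds 9 homeobox genes, which were taken by their symbols from the 25268 symbols listed for HEK293 cells, an established human embryonic kidney cell line. Transient transfection brought in 2 μg of pCMV6-HIS-HA-RBMX, a plasmid for tagged RBMX, or in the control cultures a mock empty vector, and the cells were lysed after 48 h. RBMX is an RNA-binding protein with roles in splicing and transcript abundance, and the study asked whether it acts on homeotic mRNAs. Each vector and fraction had 3 biological samples, which makes 12 libraries, and the total and polysomal library with the same vector and replicate number were taken as 1 of 6 cultures, a link the labels do not state. The cells of both groups are the same unmodified line, called wild type in the labels of the control libraries, and both went through the same transfection and cycloheximide treatment. The lysate was cleared of nuclei before it was layered on a sucrose gradient, so both fractions hold cytoplasmic RNA, and what is called total RNA was put together from 20% of every fraction of a gradient. Transient transfection leaves cells with and without plasmid in one dish, so the values are means over a mixed culture, in which fewer cells expressing a gene and less of its RNA per cell cannot be told apart.

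HOX genes encode homeodomain transcription factors that give positional identity along the body axis. Those at the 3′ end of a cluster are generally active in more anterior tissues and those at the 5′ end in more posterior ones, and neighbouring genes can share promoters and exons. Long noncoding RNAs and microRNAs are transcribed from between the coding genes. Polysomal RNA is carried by several ribosomes at once, so that comparing it with total RNA shows how a transcript is spread between translated and untranslated pools.

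The 9 genes lie on the plus strand of chromosome 12. In the GENCODE 29 annotation of GRCh38 they span 117 kb, chr12:53938765-54056030, in the order HOXC13, HOXC12, HOXC11, HOXC10, HOXC9, HOXC8, HOXC6, HOXC5 and HOXC4. The deposited values rest on hg19 according to the submitters' processing notes, so these positions serve only to describe the genes. The long annotated transcripts of HOXC6, HOXC5 and HOXC4 run through one another. Of their annotated exon bases, 17.8% of HOXC4, 15.7% of HOXC6, 14.4% of HOXC5 and 4.35% of HOXC9 also belong to another gene of the cluster. How reads on such bases were divided is not given in the sources used here, and the values of these 4 genes are therefore not fully separate. AC012531.2, another annotated gene on the plus strand, also overlaps exons of HOXC10 and HOXC5.

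**Figure D1:**
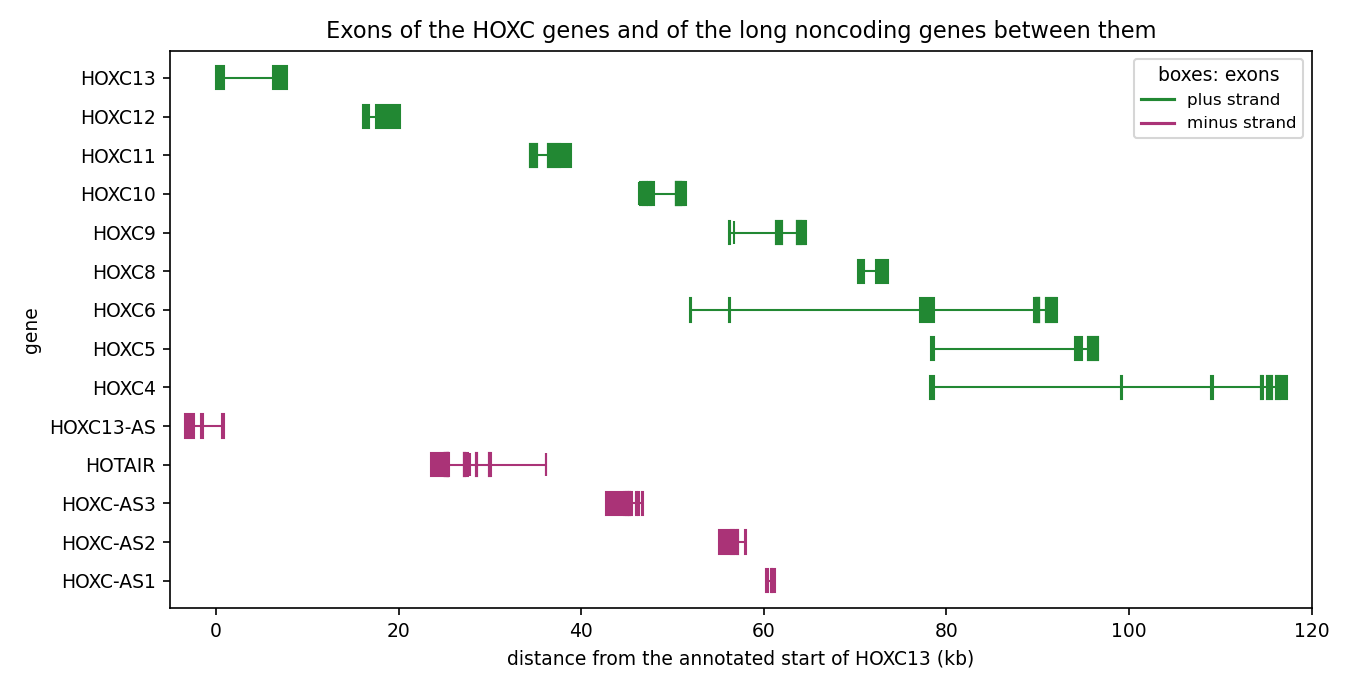
Exons (boxes) of the 9 HOXC genes and of 5 long noncoding genes of the cluster, as distance in kb from the annotated start of HOXC13, in green for the plus strand and purple for the minus strand. The first annotated exons of HOXC5 and HOXC4 lie close together, and an exon of HOXC6 covers the same place.

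The annotated first exons of HOXC4 and HOXC5 are the clearest case of this overlap. Promoter sequences were matched for 2 of the 9 genes, HOXC4 and HOXC5, and their 300-base windows were identical. The bases around that start (RefSeq, GRCh38.p14, chr12:54016873-54016902, plus strand) are shown because both genes list them as their own start. GENCODE 29 places the starts of HOXC4 and HOXC5 further downstream, at 54016931 and 54017110. Both genes also have annotated exons further downstream, and which start these cells use was not tested. Capitals mark the first 15 bases after the RefSeq start.
HOXC4 and HOXC5: cgttccgagcgctccGCAGAACAGTCCTCC

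The cluster also encodes miR-196a, which is known to silence HOX mRNAs, HOXC8 among them. Its sequence (RefSeq, GRCh38.p14, chr12:53991762-53991783, plus strand) is printed with the seed, bases 2 to 8, in capitals, and below it the matches to that seed (ACTACCT, sense strand only) in the longest coding transcript of HOXC8.
hsa-miR-196a-5p: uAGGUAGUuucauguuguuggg
HOXC8 match A: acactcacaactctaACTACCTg
HOXC8 match B: ataaatctttaacatACTACCTa
Both matches lie in exon 2 of 2, in the UTR after the coding sequence, at chr12:54011509-54011515 and chr12:54012245-54012251 (GRCh38). HOXC8 was the 1 gene of the 9 whose longest coding transcript held these letters, against 17.1% of 19669 coding genes. MIR196A2, the miR-196a gene inside the cluster, and MIR615, inside HOXC5, were listed at 0 in all 12 libraries. A value of 0 for so short a transcript in such libraries is no measure of the mature microRNA.

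Expression was deposited as FPKM, which divides the fragments of a gene by its length in kilobases and by the number of fragments mapped, so that levels can be set side by side between genes. Depth is unknown, since no fragment totals accompany the values, and neither a detection limit nor a counting interval can be given. P-values here measure the spread between these cultures and libraries. FPKM sums ranged from 817528 to 1903317 among libraries. RBMX itself checked the labels. It lay between 87.4 and 148 FPKM in the 6 control libraries and between 1072 and 2073 FPKM in the 6 RBMX libraries, and it rose by 3.71 (total) and 3.25 (polysomal) on the log2(FPKM + 1) scale (limma adjusted p = 0.00269 and 0.0415). The polysomal call was lost in 5 of 15 alternatives, with the replicate number as a block and without control polysomal replicate 1 or 2 or RBMX polysomal replicate 1 or 2 (limma adjusted p of 0.115 to 0.213), while the difference stayed between 3.17 and 3.38 in these 5. All 6 HEK293 markers had a median of at least 1 FPKM, and so did 2 of 13 markers of other cell types, CD14 and COL1A1. COL1A1, a collagen gene, was higher in RBMX than in control libraries without overlap, with means of 6.06 against 4.32 FPKM in total and 7.46 against 5.26 FPKM in polysomal RNA. Of all genes, 11.9% in total and 10.0% in polysomal RNA were higher without overlap. PAX2, a HEK293 marker, had RBMX means 1.54 and 1.67 times those of control with overlapping libraries. The part of such shifts in the results on the vector was not tested. Both libraries of control culture 3 stood apart from their group, with Spearman correlations to their replicates of 0.924 to 0.935 against 0.953 between the other control cultures in both fractions. VIM, an intermediate filament gene and a marker of these cells, was at 248 and 217 FPKM in that culture. In the other 10 libraries it was between 486 and 577 FPKM. The summed level of the 6 HEK293 markers, mostly VIM, was lowest in that culture, at 310 and 280 FPKM. Several results are also given without this culture or a library of it, but the correlations within groups are not.

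HEK293 cells expressed the cluster at both ends and nearly skipped HOXC12. HOXC4 had the highest level in every library, from 19.3 to 26.7 FPKM, with a median of 23.3. HOXC6 and HOXC9 followed at 15.2 ± 1.06 and 15.0 ± 1.51 FPKM (mean ± SD over 12 libraries of 4 groups), and they could not be ordered, since HOXC6 was above HOXC9 in 8 of 12 libraries. HOXC13, the most 5′ gene, best known for its part in hair and nail formation, came next with 10.2 to 12.6 FPKM. HOXC10, a gene of the lumbar spinal cord and hindlimb, ranged from 5.07 to 8.75 FPKM and HOXC8, active in the trunk, from 4.92 to 5.73. These ranges overlapped, although HOXC10 was higher in 11 of 12 libraries. HOXC5 (2.96 to 4.28 FPKM) and HOXC11 (1.59 to 2.70 FPKM) were each separated from their neighbours in this order in all 12 libraries. HOXC12 was at 0.142 FPKM or less and listed at 0 in control total replicate 1. With a mean of 0.0710 FPKM it fell under the minimum of 0.5 FPKM and was not tested, which left 8 of the 9 genes.

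**Figure D2:**
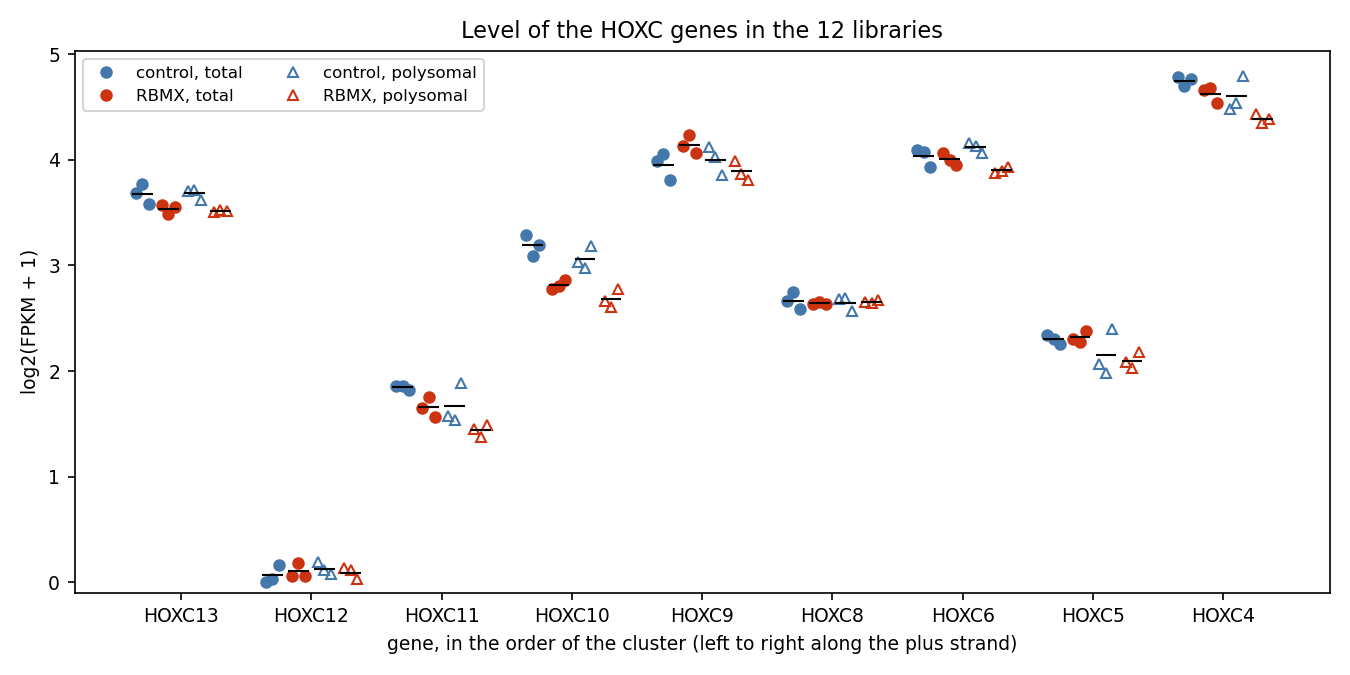
Level of each HOXC gene on the log2(FPKM + 1) scale, 1 point per library, with control in blue, RBMX in red, total RNA as circles, polysomal RNA as triangles and group means as bars. HOXC4 has the highest level in every library and HOXC12 the lowest, and the red points of HOXC10 lie below the blue ones in both fractions.

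Level did not follow position. HOXC4 at one end gave 28.1% of the summed FPKM of the cluster on average and HOXC13 at the other end 13.6%, while HOXC12, next to HOXC13, gave 0.0868%. HOXC6 and HOXC9 made up 18.4% and 18.2%. The sum over the 9 genes ranged from 72.4 to 90.0 FPKM with a median of 84.2, the lowest of the 4 HOX clusters in these cells. The corresponding medians were 201 FPKM for the 11 HOXA genes, 182 for the 10 HOXB genes and 105 for the 9 HOXD genes.

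The sum of the cluster was 87.6 ± 3.19 FPKM in control and 83.6 ± 2.25 in RBMX total RNA, and 85.1 ± 1.95 in control and 74.0 ± 1.44 in RBMX polysomal RNA (mean ± SD, n = 3 each). In polysomal RNA the 3 RBMX libraries, at 75.2, 72.4 and 74.2 FPKM, all lay below the 3 control libraries, at 84.6, 83.4 and 87.2. In total RNA the groups overlapped, with 84.5, 85.2 and 81.0 against 90.0, 88.8 and 84.0 FPKM. The polysomal RBMX group was lower than every other library of the series.

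Whether RBMX overexpression moved these genes was first asked in total RNA. None of the 8 genes tested was differentially expressed at a limma adjusted p of 0.05, while 0.164% of the 14676 genes tested were, and 2 of the 8, HOXC10 and HOXC11, were lower with an unadjusted p under 0.05, as were 10.8% of all genes. The RBMX and control libraries did not overlap for 5 of the 8 genes. HOXC13, HOXC11, HOXC10 and HOXC4 were lower (4 of 8, against 15.4% of all genes) and HOXC9 was higher (1 of 8, against 11.9%). The median difference over the 8 genes was -0.074 on the log2(FPKM + 1) scale, where the median of all genes was 0. Adding 1 makes fold changes look smaller than they are where FPKM is low, as for HOXC11.

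HOXC10 showed the widest gap between the vectors. In total RNA it was at 8.75, 7.51 and 8.14 FPKM in control and at 5.83, 5.98 and 6.28 FPKM in RBMX cells. In polysomal RNA it was at 7.16, 6.86 and 8.07 FPKM in control and at 5.32, 5.07 and 5.85 FPKM in RBMX cells. Every RBMX library thus lay below every control library of either fraction. The ratio of the group means was 0.742 in total and 0.735 in polysomal RNA. On the log2 scale the differences were -0.38 (95% confidence interval -0.56 to -0.19) and -0.38 (-0.61 to -0.16), with limma adjusted p-values of 0.170 and 0.400. Neither passed the threshold, nor did they in any of the 15 alternatives tried in each fraction, where the adjusted p ranged from 0.0737 to 0.539 in total and from 0.114 to 0.799 in polysomal RNA. The exact two-sided permutation test gave p = 0.1 in each, the smallest that 3 against 3 libraries allow. Without control culture 3 the differences were -0.37 and -0.32. Of the exon bases of HOXC10, 63 (2.70%) overlap HOXC-AS3 on the opposite strand, which was at 0.811 FPKM or less. Exons of HOXC10 also overlap AC012531.2 on the same strand, and the part of its reads in these values was not tested.

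HOXC9, the neighbour of HOXC10, went the other way in total RNA. It was at 14.8, 15.6 and 13.0 FPKM in control and at 16.5, 17.8 and 15.8 FPKM in RBMX cells. The RBMX libraries were all higher, by little for the closest pair. The difference was 0.19 (-0.026 to 0.41, limma adjusted p = 0.305), and 0.12 without control replicate 3, the lowest library. In polysomal RNA the values were 16.4, 15.3 and 13.5 against 14.9, 13.6 and 13.0 FPKM, which overlapped, with a difference of -0.11 (-0.36 to 0.13, limma adjusted p = 0.633) that ranged from -0.18 without control replicate 3 to -0.049 without control replicate 1. As a share of the cluster sum HOXC9 went from 16.5% ± 1.06 to 19.9% ± 0.796 in total RNA, and HOXC10 from 9.29% ± 0.726 to 7.23% ± 0.464 (SD, n = 3 each). Since the shares add up to a fixed total, these are not independent of each other. Of the exon bases of HOXC9, 163 (9.71%) overlap HOXC-AS2 on the opposite strand. HOXC-AS2 averaged 1.07 FPKM in control and 1.52 FPKM in RBMX total RNA, with overlapping libraries.

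The remaining genes tested on the 5′ side were HOXC13 and HOXC11. HOXC13 was at 11.8, 12.6 and 11.0 FPKM in control and 10.9, 10.2 and 10.7 in RBMX total RNA, and at 12.1, 12.2 and 11.3 against 10.4, 10.5 and 10.4 FPKM in polysomal RNA. The groups did not overlap in either fraction, narrowly so in total RNA. Its differences were -0.14 (-0.32 to 0.032) and -0.17 (-0.33 to -0.0084), with limma adjusted p-values of 0.335 and 0.417. HOXC11, a paralog of genes of limb and urogenital patterning, was at 2.63, 2.62 and 2.53 against 2.13, 2.37 and 1.96 FPKM in total RNA and at 1.97, 1.90 and 2.70 against 1.74, 1.59 and 1.81 FPKM in polysomal RNA. Here the spread of polysomal RNA came from control culture 3, the highest of all 12 libraries. The differences were -0.19 (-0.35 to -0.034) and -0.23 (-0.50 to 0.043), with limma adjusted p-values of 0.216 and 0.452. Without that culture the polysomal difference was -0.12.

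At the 3′ end, HOXC4 was at 26.5, 24.9 and 26.2 FPKM in control and 24.2, 24.6 and 22.3 in RBMX total RNA. In polysomal RNA it was at 21.4, 22.2 and 26.7 FPKM in control and 20.6, 19.3 and 20.0 in RBMX cells. All RBMX libraries were lower, and control culture 3 was again the highest polysomal library. The differences were -0.12 (-0.27 to 0.029) and -0.21 (-0.46 to 0.034), with limma adjusted p-values of 0.337 and 0.441, and the polysomal difference was -0.12 without that culture. In total RNA it was -0.080 without RBMX replicate 3. HOXC5, which has a RefSeq start in common with HOXC4, was at 4.06, 3.93 and 3.77 against 3.93, 3.84 and 4.20 FPKM in total RNA. In polysomal RNA it was at 3.20, 2.96 and 4.28 against 3.23, 3.07 and 3.53 FPKM. Both comparisons overlapped. The difference in total RNA, 0.021 (-0.12 to 0.16), was -0.0094 without RBMX replicate 3, and that in polysomal RNA, -0.056 (-0.37 to 0.26), was 0.069 without control replicate 3.

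HOXC6 and HOXC8 had similar levels under both vectors in total RNA. HOXC6 was at 16.0, 15.8 and 14.2 FPKM in control and 15.8, 15.0 and 14.5 in RBMX cells, a difference of -0.024 (-0.19 to 0.15). In polysomal RNA it was at 16.9, 16.5 and 15.8 against 13.7, 13.9 and 14.2 FPKM. There every RBMX library lay below every control library by more than 1 FPKM. The polysomal difference was -0.22 (-0.37 to -0.063, limma adjusted p = 0.400). HOXC8 had the narrowest spread of the 8 genes, between 5.19 and 5.38 FPKM in the 6 RBMX libraries and between 4.92 and 5.73 in the 6 control libraries. Its differences were -0.027 (-0.18 to 0.13) in total and 0.0085 (-0.16 to 0.18) in polysomal RNA.

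In polysomal RNA as a whole, none of the 8 genes passed the threshold, against 0.0477% of all genes, and 3 of 8, HOXC13, HOXC10 and HOXC6, were lower with an unadjusted p under 0.05, as were 6.53% of all genes. HOXC13, HOXC11, HOXC10, HOXC6 and HOXC4 did not overlap and were lower (5 of 8, against 12.5% of all genes), and 0 were higher (against 10.0%). The median difference was -0.19 for the 8 genes and 0 for all genes. Genes of one cluster, some with shared exons, are not independent observations, and no test was made of the group.

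**Figure D3:**
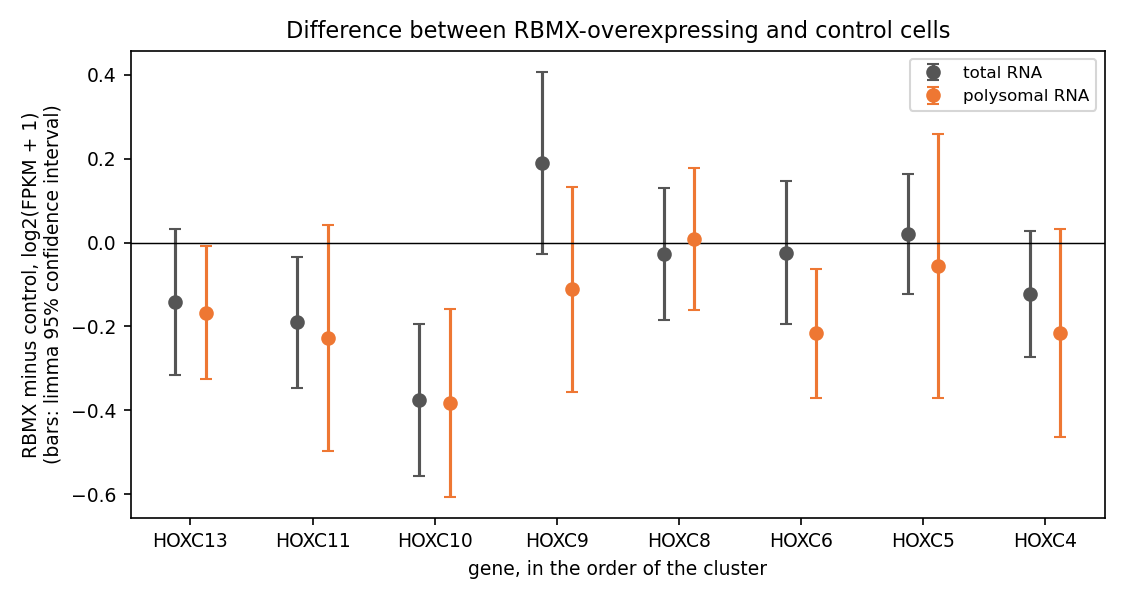
Difference between RBMX-overexpressing and control cells on the log2(FPKM + 1) scale for the 8 tested genes in cluster order, in total RNA (grey) and polysomal RNA (orange), with limma 95% confidence intervals from 3 against 3 libraries. Only the intervals of HOXC10 and HOXC11 in total RNA and of HOXC13, HOXC10 and HOXC6 in polysomal RNA lie wholly below 0, none lies wholly above it, and none of the 8 genes passed the adjusted threshold.

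The difference of the RBMX effect between the fractions was tested over all 12 libraries. It passed for 0 of the 8 genes (0.0204% of all genes). The effect in polysomal RNA differed from that in total RNA by -0.30 for HOXC9 (-0.59 to -0.013) and by -0.19 for HOXC6 (-0.38 to -0.0084), each with an unadjusted limma p of 0.042 and an adjusted p of 1.00. This fit had no culture block. HOXC9 and HOXC6 were 2 of 8 genes there with a lower effect and an unadjusted p under 0.05, against 0.388% of all genes. With the culture as a block these p-values were 0.0116 and 0.0268, and the adjusted ones remained at 1.00. No share of all genes is given for the fit with the block. For HOXC10 the difference without the block was -0.0064 (-0.25 to 0.23).

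Polysomal was then compared with total RNA in each vector. In control cells 0 of the 8 genes passed by limma (0.0818% of all genes), 0 had an unadjusted p under 0.05 (8.04%), and for 0 of 8 did the polysomal and total libraries lie apart (7.31% of all genes were lower and 7.63% higher without overlap). In RBMX cells 0 of the 8 passed by limma (1.34% of all genes), 4 of 8 were lower with an unadjusted p under 0.05 (13.0%), and HOXC11, HOXC9, HOXC6, HOXC5 and HOXC4 were lower in polysomal RNA without overlap (5 of 8, against 16.2%), with 0 higher (against 14.6%). The smallest limma adjusted p there was 0.117, for HOXC4. An alternative added after seeing the data left out both libraries of control culture 3. The control differences were then -0.30 for HOXC11, -0.29 for HOXC5, -0.23 for HOXC4 and -0.19 for HOXC10. The other genes tested lay between -0.018 and 0.061, and the limma adjusted p was 0.0711 or more. In RBMX cells HOXC11, HOXC5, HOXC4 and HOXC10 differed by -0.22, -0.22, -0.24 and -0.13. Control and RBMX cells use different cultures, so that these are separate comparisons of polysomal with total RNA.

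All 6 cultures were also fitted jointly, with vector as a covariate. HOXC4 differed by -0.19 (-0.31 to -0.066, limma adjusted p = 0.0589), HOXC11 by -0.20 (-0.34 to -0.062, adjusted p = 0.0703 by limma), HOXC5 by -0.19 (-0.33 to -0.037, adjusted p = 0.111 by limma) and HOXC10 by -0.13 (-0.24 to -0.019, adjusted p = 0.133 by limma). None of the 8 genes passed, against 8.93% of all genes, and these 4 of 8 were lower with an unadjusted p under 0.05, against 15.4%. By the protocol total RNA was drawn from the gradient that gave the polysomes. With equal replicate numbers taken as one culture and the culture as a block, HOXC4 (limma adjusted p = 0.0376) and HOXC10 (limma adjusted p = 0.0475) passed, both lower in polysomal RNA, against 23.9% of all genes called with the block. HOXC11 and HOXC5 remained above the threshold with the block, at 0.0626 and 0.0738 (limma adjusted p).

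The single cultures show where these values come from. HOXC10 was lower in polysomal RNA in 6 of 6 cultures, as were 16.5% of all genes, by -0.26, -0.11 and -0.012 in control and by -0.11, -0.20 and -0.089 in RBMX cultures 1 to 3 (exact two-sided sign-flip permutation p = 0.0312, the smallest that 6 pairs allow). HOXC4, HOXC5 and HOXC11 were lower in 5 of 6 cultures (exact permutation p = 0.0625 each), and control culture 3 was the exception for each of them. HOXC4 gave -0.30, -0.16 and 0.027 in control and -0.22, -0.33 and -0.15 in RBMX cultures. HOXC5 gave -0.27, -0.32 and 0.15 in control and -0.22, -0.25 and -0.20 in RBMX cultures. HOXC11 gave -0.29, -0.32 and 0.068 in control and -0.19, -0.38 and -0.078 in RBMX cultures. Across the other 5 cultures HOXC5 varied least and HOXC11 most. Without both libraries of control culture 3, an alternative added after seeing the data, HOXC4, HOXC5 and HOXC11 passed with limma adjusted p-values of 0.0042, 0.0052 and 0.0064 and differences of -0.23, -0.25 and -0.25, and HOXC10 did not (limma adjusted p = 0.0537), where 22.7% of all genes were called. With the culture block as well, all 4 passed (limma adjusted p of 0.0087 to 0.0376), as did 20.8% of all genes. Without the polysomal library of that culture alone, all 4 passed too (limma adjusted p of 0.0032 to 0.0453), as did 18.2% of all genes.

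HOXC13 and HOXC8 had the narrowest intervals around 0. Over both vectors HOXC13 differed by -0.0083 (-0.094 to 0.078) and HOXC8 by -0.0015 (-0.085 to 0.082), and the single cultures lay between -0.060 and 0.041 for both. HOXC6 also averaged near 0, at -0.011 (-0.12 to 0.096), but from values of opposite sign, namely 0.066, 0.056 and 0.14 in the control cultures and -0.19, -0.11 and -0.027 in the RBMX cultures. HOXC9 gave 0.14, -0.033 and 0.044 in control cultures and -0.14, -0.36 and -0.26 in RBMX cultures, so that the values of the vectors did not overlap for either gene (2 of 8, lower in RBMX cultures, against 4.12% of all genes). The sign pattern of HOXC6, above 0 in every control and below 0 in every RBMX culture, was found in 1 of 8 genes and in 0.450% of all genes.

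**Figure D4:**
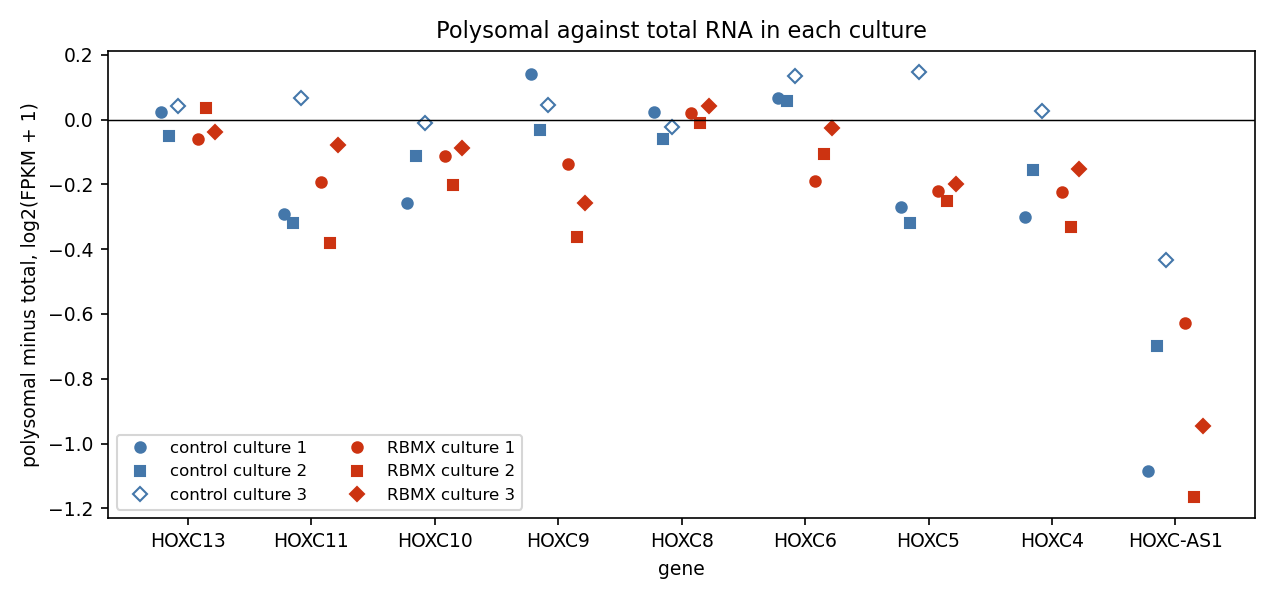
Polysomal minus total RNA within each culture on the log2(FPKM + 1) scale, in blue for control and red for RBMX cultures, with open diamonds for control culture 3. HOXC10 and HOXC-AS1 lie below 0 in 6 of 6 cultures, HOXC11, HOXC5 and HOXC4 lie below 0 except for control culture 3, and HOXC6 lies above 0 in control and below 0 in RBMX cultures.

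Within groups, the 8 genes split into 2 sets that varied against each other. Deviations from the group means over the 12 libraries correlated with Pearson's r from 0.55 to 0.90 among HOXC4, HOXC5, HOXC10 and HOXC11 (6 of 6 pairs positive) and from 0.56 to 0.84 among HOXC6, HOXC8, HOXC9 and HOXC13 (6 of 6 pairs positive). All 16 pairs between the sets were negative, from -0.65 to -0.15. The sets were read off these values. HOXC6 shares exon bases with HOXC9 of its own set and with HOXC4 and HOXC5 of the other, and HOXC4 and HOXC5 share bases within one set. All 12 points share the libraries and their scaling, and control culture 3, with the highest HOXC4, HOXC5, HOXC10 and HOXC11 of its group in polysomal RNA and the lowest HOXC6, HOXC8, HOXC9 and HOXC13 of its group in both fractions, contributes to each pair. Its part in these correlations was not tested.

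**Figure D5:**
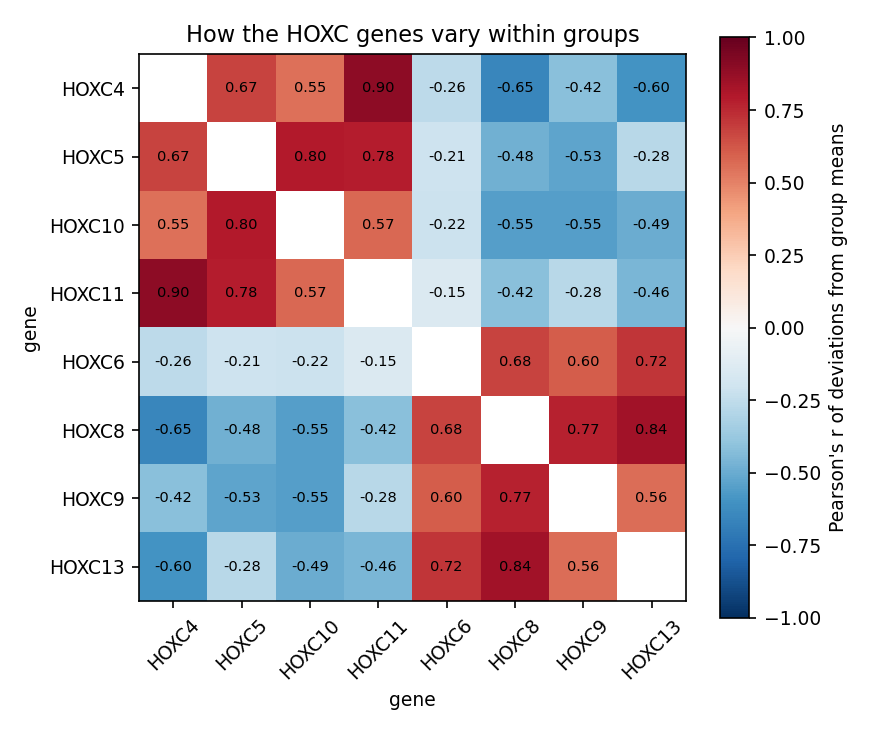
Pearson's r between the 8 tested genes, computed on deviations of log2(FPKM + 1) from the means of the 4 groups over 12 libraries and ordered by the sets described in the text. The blocks on the diagonal are positive (0.55 to 0.90 and 0.56 to 0.84) and all 16 pairs between them are negative.

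Over the 12 libraries, without removal of group means, the gene most like HOXC4 among those tested was HOXC11, from the other end of the cluster, with r = 0.964. C17orf100 (0.964), the homeobox gene DLX4 (0.956) and TMEM42 (0.955) followed. HOXC5, which has a RefSeq start in common with HOXC4, reached 0.733. These are descriptions over libraries of 4 groups, which themselves differ in level.

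Of the 4 noncoding genes of the cluster that were tested, 1, HOXC-AS1, passed the comparison of the fractions over both vectors. HOXC-AS1, transcribed from the minus strand within HOXC9 and without exon bases in common with any HOXC gene, was at 12.1, 10.8 and 14.8 FPKM in control total and 5.19, 6.29 and 10.7 FPKM in control polysomal RNA. In RBMX cells it was at 9.01, 10.7 and 11.3 FPKM in total and 5.48, 4.23 and 5.40 FPKM in polysomal RNA. It was lower in polysomal RNA in 6 of 6 cultures, as were 16.5% of all genes, by -0.43 to -1.16 on the log2 scale. Over both vectors it fell by 0.83 (limma adjusted p = 0.0121, exact permutation p = 0.0312) and passed in all 22 alternatives. Of all genes, 8.93% were called in the main fit and 23.9% with the culture block. In RBMX cells alone it fell by 0.91 (limma adjusted p = 0.0449), where 1.34% of all genes were called. That call was lost in 10 of 15 alternatives, among them each fit without 1 of the 6 RBMX libraries (limma adjusted p of 0.0861 to 0.200). In control cells the difference was -0.74 (limma adjusted p = 0.597).

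HOXC13-AS, antisense to the start of HOXC13 with 172 shared exon bases, was at 2.99, 2.50 and 2.27 FPKM in control and 2.05, 1.73 and 1.53 in RBMX total RNA. In polysomal RNA it was at 2.17, 2.09 and 2.32 against 1.82, 1.30 and 1.52 FPKM. The groups did not overlap in either fraction, with the RBMX libraries lower as for HOXC13 itself. It was the 1 of 4 tested noncoding genes without overlap in each fraction. Of all genes, 15.4% were lower without overlap in total and 12.5% in polysomal RNA. The differences were -0.37 and -0.33 (limma adjusted p = 0.189 and 0.400). The use of strand in counting is not given in the sources used here, so that reads of the 2 genes cannot be told apart over the shared bases. HOTAIR, a long noncoding RNA known for its link to Polycomb repression, ranged from 0.764 to 1.39 FPKM and HOXC-AS2 from 0.780 to 2.06, while HOXC-AS3, with a mean of 0.404 FPKM, was not tested.

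The genes flanking the cluster were each higher than any HOXC gene on average apart from CALCOCO1, a coactivator and autophagy receptor gene, at 16.0 FPKM. CALCOCO1 was higher in RBMX than in control cells in both fractions without overlap, with means of 18.3 against 13.5 FPKM in total and 17.3 against 14.9 in polysomal RNA, and did not pass the threshold. Of all genes, 11.9% were higher without overlap in total and 10.0% in polysomal RNA. SMUG1, a DNA glycosylase gene, averaged 41.3 FPKM, CBX5, the gene of the heterochromatin protein HP1α, 30.1 FPKM, and HNRNPA1, a splicing regulator, 101 FPKM. CBX5 and SMUG1 were lower in RBMX than in control total RNA without overlap (2 of 4, against 15.4% of all genes), with means of 24.4 against 30.1 and 43.2 against 45.6 FPKM. None of these 4 genes passed for RBMX in either fraction.

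Genes that work with or on the HOX clusters were described in the same way. Of the 28 tested genes of the HOXA, HOXB and HOXD clusters 0 passed for RBMX in either fraction, and 8 were lower and 0 higher without overlap in total RNA and likewise 8 and 0 in polysomal RNA, where the shares of all genes were those given above (15.4% and 11.9% in total, 12.5% and 10.0% in polysomal RNA). Their median differences were -0.052 and -0.11, with HOXD8 the lowest (-0.42 and -0.46) and HOXD9 the highest (0.35 and 0.34). The 9 TALE cofactors, homeodomain partners of HOX proteins, gave medians of -0.044 and -0.085 and 0 passed. The 30 Polycomb and Trithorax genes, which keep HOX genes silent or active, gave medians of 0.051 and 0.045 and 0 passed. For polysomal against total RNA over both vectors, HOXB2 fell by 0.62 (limma adjusted p = 0.00107), the 1 of 28 that passed, and 0 of 9 TALE and 2 of 30 Polycomb and Trithorax genes passed, against 8.93% of all genes.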

How the data were processed

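According to the labels and the study's methods, libraries were made from 500 ng of RNA with a TruSeq RNA kit and sequenced as paired reads of 100 bases. The authors deposited FPKM values per gene symbol, made with CASAVA 1.8, TopHat2 2.0.13, Cufflinks 2.2.1 and Cuffnorm on hg19 per the submitters' processing notes. The study's methods name a later genome build, a GENCODE annotation, other aligners and read counts, which differ from these notes. Which annotation and strand setting the FPKM values rest on is therefore not known. Neither counts nor depth were analysed here, so precision rests on the spread between libraries.

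Genes with a mean of at least 0.5 FPKM (14676 of 25268) were compared on log2(FPKM + 1) with limma 3.58.1 in R 4.3.3, with Benjamini-Hochberg adjustment over all of them and a threshold of 0.05. The fit was also run on simulated data with independent libraries. Such data lack the correlation between fractions of one culture given below, so that run cannot show how the fit deals with it. A single comparison used the groups concerned, and the difference between fractions used all 12 libraries. Exact permutation tests were two-sided. Named genes were the 9 HOXC genes, RBMX, the noncoding and flanking genes of the cluster, and the 5 genes most correlated with the highest HOXC gene, of which 1 is not reported here, and other lists were described by counts and medians with the genes of largest change. The members and lists were chosen with earlier results of these data known. By the protocol total RNA was pooled from gradient fractions. That equal replicate numbers of the 2 fractions mark one gradient is an inference, on which the culture block and the values per culture rest. Deviations of such pairs from the group means correlated, over 14161 genes, with r of 0.625, 0.724 and 0.858 in control and 0.234, 0.0200 and 0.695 in RBMX cultures. Alternatives covered the pseudocount, the filter, rescaling, quantile normalization, the trend, a block, the libraries in the fit and each library left out. Positions came from GENCODE 29 and sequences of microRNAs and starts from RefSeq (GRCh38.p14), with Python 3.11.15, pandas 2.3.3 and matplotlib 3.10.9.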

Additional observations from a re-analysis of the deposited data

Results flagged for a closer look

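HOXC6 went in opposite directions between fractions under the vectors. Polysomal minus total RNA, on the log2(FPKM + 1) scale, was above 0 in 3 of 3 control cultures and below 0 in 3 of 3 RBMX cultures. This direction was shown by 0.450% of all genes, while the flag covered the opposite direction too. The difference of the effects was -0.19 (limma unadjusted p = 0.0421, adjusted p = 1.00). It was not past the threshold after adjustment over all genes.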

How the results depend on the processing

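Of 832 alternative values for the HOXC genes, 770 kept their direction and their side of the threshold, 49 turned sign, 0 lost a call and 13 gained one. No HOXC gene passed in a main fit, so no call could be lost. Settings that changed only the filter, the trend or the block, or put all 12 libraries in one fit, left the differences themselves unchanged. Their signs could not turn. The gained calls were all for polysomal against total RNA over both vectors. The cause of the changes below was not tested. Depth is unknown, and no value of HOXC12 could be tested. The leave-one-out fits have 1 group of 2 libraries.

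The counts of all genes called moved as follows. RBMX against control in total RNA gave 24, with 62 at a minimum of 0.1 FPKM, 77 without a filter, 13 with the replicate block, 60 with all 12 libraries in one fit, and 19 to 178 with a library left out. In polysomal RNA it gave 7, with 14, 31, 3 and 22 under the same settings and 9 to 126 with a library left out. The difference between fractions gave 3, with 5 under the block, 7 without control culture 3, and 3 to 7 with a library left out. Polysomal against total RNA in control cells gave 12, with 6 under the block, 41 with all 12 libraries, 199 without control culture 3, and 12 to 26 with a library left out. In RBMX cells it gave 196, with 61 without a filter, 70 after quantile normalization, 4 under the block, 21 with all 12 libraries, and 10 to 42 with a library left out. Over both vectors it gave 1310, with 3512 under the block, 3337 without control culture 3, 3056 with both, and 447 to 2668 with a library left out.

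The values that turned sign were close to 0. Without control culture 3, the difference between fractions was 0.087 for HOXC11, 0.051 for HOXC10 and 0.070 for HOXC5, the control value of HOXC13 was -0.014, and that of HOXC8 over both vectors was 0.0027, also with the culture block. Median-ratio rescaling gave 0.00031 for the HOXC10 difference between fractions and 0.0050 for HOXC8 over both vectors. Quantile normalization gave 0.018 for HOXC8 in control cells and 0.00097 for HOXC13 in RBMX cells, and over both vectors 0.018 for HOXC13, 0.028 for HOXC8 and 0.016 for HOXC6. With a library left out, RBMX against control in total RNA ranged from -0.0094 to 0.042 for HOXC5, -0.074 to 0.0064 for HOXC6 and -0.066 to 0.016 for HOXC8, and in polysomal RNA from -0.14 to 0.069 for HOXC5 and -0.033 to 0.031 for HOXC8. The difference between fractions ranged from -0.055 to 0.053 for HOXC10, -0.10 to 0.074 for HOXC11, -0.071 to 0.024 for HOXC13, -0.15 to 0.00099 for HOXC4, -0.16 to 0.048 for HOXC5 and -0.0070 to 0.075 for HOXC8. Polysomal against total RNA in control cells ranged from -0.045 to 0.051 for HOXC13, -0.059 to 0.023 for HOXC8 and -0.020 to 0.12 for HOXC9, and over both vectors from -0.032 to 0.011 for HOXC13, -0.044 to 0.014 for HOXC6 and -0.017 to 0.019 for HOXC8.

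In the labels, control and RBMX libraries of one number share only that number. Whether they were handled together is not given in the sources used here. Their deviations correlated with r of 0.353, -0.045 and 0.024 in total and -0.16, 0.028 and 0.075 in polysomal RNA. With that number as a block, 0 HOXC genes passed for RBMX in either fraction. With the culture as a block, which rests on equal replicate numbers of the fractions, the calls of HOXC4 and HOXC10 over both vectors were gained and no other call of a HOXC gene changed.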
